A study of Mus musculus with 6 samples.

Results

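miR-9 and miR-124 are microRNAs (miRNAs) known for their part in making neurons, and their 6 mouse genes, mir-9-1, mir-9-2, mir-9-3, mir-124-1, mir-124-2 and mir-124-3, were described here in embryonic stem cells and after a neuronal induction. Members were the entries of the deposited small-RNA table whose name equalled one of these 6 names, so that mir-1247 and mir-1249 stayed out. All 6 were found among 898 miRNA genes, of which 634 were above 0 in at least 1 group. The cells were E14Tg2a, an established mouse embryonic stem cell line. The ESC group (embryonic stem cells, 3 libraries) was kept in leukemia inhibitory factor (LIF), which sustains self-renewal. The NC group ("neuronal cells" in the study's wording, 3 libraries) was the same line grown as a monolayer for 48 hours in LIF-free medium that held 1 µM retinoic acid (RA), so that loss of LIF and gain of RA cannot be told apart. No transgene or deletion is named for either group, and both rest on 1 cell line. Each replicate was total RNA from a pair of culture plates. Nothing in the labels says that the replicates came from separate cultures, so the p-values measure only the spread between these libraries.

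A miRNA is cut from a hairpin transcript, and one short strand is loaded into an Argonaute protein, where its seed (bases 2 to 8) pairs with target mRNAs and lowers their output. miR-9 is made in neural progenitors and neurons, and both arms of its hairpin are used. miR-9-5p acts on the neuron-gene repressor REST and on the progenitor factor TLX, and miR-9-3p acts on CoREST, a partner of REST. miR-124 is the abundant miRNA of mature neurons and acts on the splicing repressor Ptbp1.

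The sequences of miR-9 are shown because the 3 genes give the same mature miRNAs and differ only outside them, which bears on every value below. They are from RefSeq (GRCm38.p6), where 3 of the 6 members matched an entry, and capitals mark the seed.

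miR-9-5p: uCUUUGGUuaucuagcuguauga

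miR-9-3p: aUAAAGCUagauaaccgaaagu

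Among 1738 mature entries of that table, 3 carried the seed of miR-9-5p and 3 carried that of miR-9-3p, and all of them came from the 3 miR-9 genes. The hairpins follow 5′ to 3′, with both mature arms in capitals.

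Mir9-1 (chr3:88215598-88215686, plus strand): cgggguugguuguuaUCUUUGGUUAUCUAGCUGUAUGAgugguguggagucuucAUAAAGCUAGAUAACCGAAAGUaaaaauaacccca

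Mir9-2 (chr13:83738814-83738885, plus strand): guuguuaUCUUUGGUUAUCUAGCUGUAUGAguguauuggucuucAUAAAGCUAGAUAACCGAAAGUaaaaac

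Mir9-3 (chr7:79505264-79505353, plus strand): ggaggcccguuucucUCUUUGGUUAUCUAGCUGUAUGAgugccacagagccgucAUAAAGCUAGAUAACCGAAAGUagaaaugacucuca

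The arms took up 45 bases of each hairpin, and the loop between them was 16 bases in Mir9-1 and Mir9-3 and 14 bases in Mir9-2. Over aligned bases the hairpins of Mir9-1 and Mir9-2 were 97.2% identical, those of Mir9-2 and Mir9-3 88.9%, and those of Mir9-1 and Mir9-3 79.8%. A read of a mature arm alone therefore matches all 3 loci. RefSeq also holds a hairpin on the opposite strand of each locus (Gm25641, Gm51268 and Gm51285), whose mature miR-9b-3p is the reverse complement of 21 bases of miR-9-5p. Whether the counting used strand is not given in the sources used here.

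By the GENCODE annotation of GRCm38, Mir9-1 lies in an intron of the long noncoding RNA gene Gm3764, and Mir9-3 lies in an intron of Mir9-3hg. Mir9-2 lies within an exon of C130071C03Rik. Mir124a-1 (chr14:64590657-64590741) lies within an exon of Mir124a-1hg, and Mir124a-2 (chr3:17795662-17795770) lies partly in an exon of Mir124-2hg. Mir124a-3 (chr2:180894040-180894107) overlaps the start of Gm27032 by 3 bases. All 6 are on the plus strand, on 5 chromosomes, with miR-9 and miR-124 each having a gene on chromosome 3.

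The deposited values were group means of normalised reads (reads of a library over its size factor, a measure of its depth), and the reads behind each mean were recovered from its decimals. Within each group the deepest library was called A, the next B and the shallowest C, with size factors from 1.62 down to 0.547 for the ESC libraries and from 2.31 down to 0.585 for the NC libraries. In both groups library C, the shallowest, stood apart from A and B. Over the 222 resolved miRNAs whose means reached 20 in both groups, its log2 deviation from A and B had an SD of 1.31 (ESCs) and 1.19 (NCs). For A minus B the SD was 0.31 and 0.23. Over the same miRNAs the deviations of C in ESCs and in NCs correlated (Pearson's r = 0.81, Spearman's rho = 0.88). The 12 listed miRNAs of pluripotent cells summed to 137809 normalised reads in the ESC mean and 31426 in the NC mean, and the 6 miRNAs of the RA and Hox response summed to 3747 and 810696. The latter NC sum was mostly mir-10a (754551) and mir-10b (55789). Of the other listed miRNAs of that response, mir-196b and mir-615 had higher means in NCs. Those of mir-196a-1 (79.7 and 55.6) and mir-196a-2 (122 and 87.5) were lower in NCs. Of miRNAs of other cell types, 2 of 8 muscle miRNAs in the table were detected, at 18.0 normalised reads summed in ESCs and 11.5 in NCs, with all mir-1a and mir-133 genes at 0, and the liver miRNA mir-122 was at 0.411 and 0. All 4 blood miRNAs in the table were detected and summed to 6041 and 1136, with a range over libraries from 2243 to 13499 in ESCs and from 859 to 1659 in NCs. Of those 4, mir-150 (5114 in ESCs and 776 in NCs) and mir-142 (924 and 357) held nearly all of the sum, and both were lower in NCs. The red cell miRNAs mir-144 and mir-451a stayed at or below 2.27 in both means. The part of these blood miRNAs and of the C libraries in the results below was not tested. Comparisons of miR-9, of miR-124 and of the neural list are given with and without the C libraries.

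To ask whether the 48 hours of RA changed miR-9, its reads were compared library by library. mir-9-1 had 810, 387 and 196 reads in ESC libraries A, B and C, which are 499, 413 and 358 normalised reads. In NC libraries A, B and C it had 1538, 671 and 555 reads, which are 667, 687 and 949 normalised reads. Every NC library lay above every ESC library, and the gap between the nearest of them was 167 normalised reads.

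The means of mir-9-1 were 423 ± 71.2 normalised reads in ESCs and 768 ± 157 in NCs (SD, n = 3). Those of mir-9-2 were 420 ± 66.8 and 768 ± 154, from 491, 411 and 358 in the ESC libraries and 668, 690 and 946 in the NC libraries. Those of mir-9-3 were 421 ± 69.8 and 767 ± 160, from 494, 416 and 354 in ESCs and 664, 685 and 951 in NCs. In all 3 genes C was the lowest ESC library and the highest NC library. The spread between libraries, with a coefficient of variation of 15.9% to 20.8%, was wider than counting error, which was at most 7.18% at these read numbers.

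**Figure D1:**
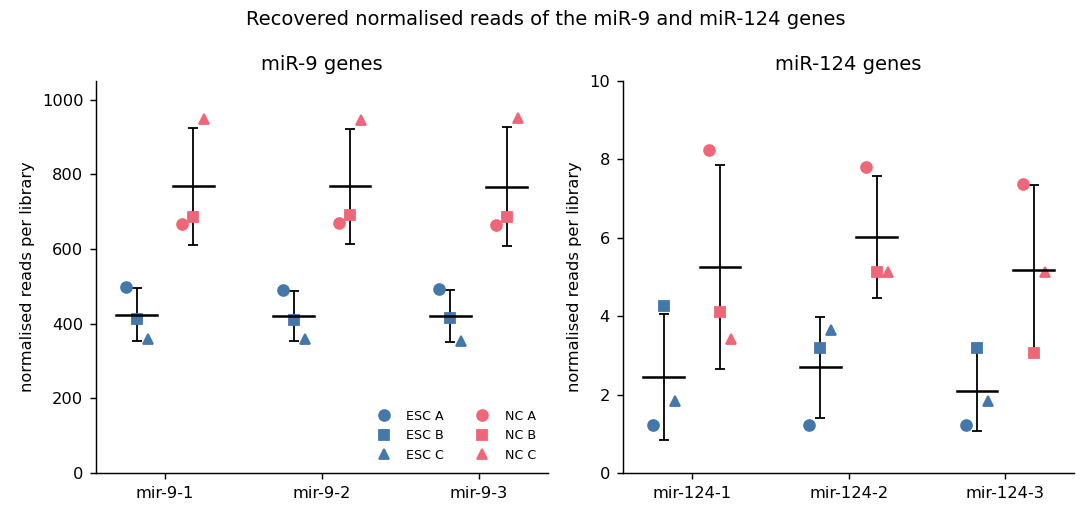
Normalised reads per library (vertical axes, linear from 0) for the 3 miR-9 genes (left) and the 3 miR-124 genes (right), with ESC libraries in blue, NC libraries in red, and circles, squares and triangles for libraries A, B and C. Black lines give the mean ± SD (n = 3): the miR-9 groups lie apart, at 354 to 499 against 664 to 951, while for miR-124 all values lie between 1.23 and 8.24 and only mir-124-2 separates.

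The 3 miR-9 genes gave nearly the same count in each library. Their reads differed by at most 14 within a library (796 to 810 in ESC library A), or 1.76%. Summed over the 6 libraries, the chi-square between copies was 0.232 on 12 degrees of freedom, where independent counts would average 12. The 3 entries therefore carry 1 measurement of miR-9, and they were not counted as 3 results.

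In limma-voom across the 306 miRNAs tested (at least 10 reads in 3 libraries), mir-9-1 was 0.91 higher in NCs on the log2 scale (SE 0.29), with a 95% interval of 0.24 to 1.59, which is a 1.88-fold difference. The Benjamini-Hochberg adjusted p of limma-voom was 0.083 for each of the 3 genes, with log2 differences of 0.92 for mir-9-2 and mir-9-3, so none was called at 0.05. Unadjusted limma p-values were 0.0152, 0.0137 and 0.015. Of the 306 miRNAs, 29 were called higher in NCs (9.48%) and 18 lower, and the miR-9 genes stood at ranks 50 to 55 by p-value. The fit left out miRNAs unresolved in either group, which include every miRNA with a group mean over 6000, such as mir-10a and mir-10b. The median difference over all tested miRNAs was -0.09, and the miR-9 genes lay 1.01 to 1.02 above it. With 3 libraries against 3, the exact two-sided permutation test of each gene gave p = 0.1, the smallest it allows. As a pattern of separation, 16.1% of 311 resolved miRNAs that reached a mean of 10 in 1 or both groups also had every NC library above every ESC library.

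The call on miR-9 turned on how the C libraries were treated. With the library set (C against A and B) as a covariate in limma-voom, the differences were 0.85, 0.86 and 0.85 for mir-9-1, mir-9-2 and mir-9-3, with adjusted p-values of 0.00459, 0.00383 and 0.00459, and the genes were called. In that fit 22.2% of tested miRNAs were called higher in NCs. With A and B of each group alone the differences were 0.57, 0.59 and 0.57 (limma-voom adjusted p 0.00371, 0.00275 and 0.00353), where 27.4% of the 314 miRNAs tested were called higher. In normalised reads the A and B libraries gave a 1.48-fold to 1.51-fold difference, and the C libraries, 1 in each group and thus without a test, a 2.64-fold to 2.68-fold difference. Library C lay below A and B by 0.33 to 0.35 in ESCs and above them by 0.48 to 0.49 in NCs on the log2 scale. The covariate holds a shift of C that is common to both groups, so it cannot take up these shifts of opposite sign. The library set is a rank of depth that the labels do not give, chosen with the data in view.

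The scaling between groups also moved the value. Setting the totals of both groups equal shifted every log2 difference by -0.48, and doing so without mir-10a, the most abundant miRNA of NCs, shifted it by 0.44. The miR-9 genes then differed by 0.44 to 0.45 (adjusted limma p 0.287 to 0.3) and by 1.35 to 1.36 (0.0162 to 0.0165). Under the latter 14.4% of tested miRNAs were called higher. NCs were higher in all 15 alternative fits, in 3 of which the genes were called. The fit with gene copies counted once held mir-9-1 alone. All of these fits reuse the same libraries, so their shared direction is no independent evidence.

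**Figure D2:**
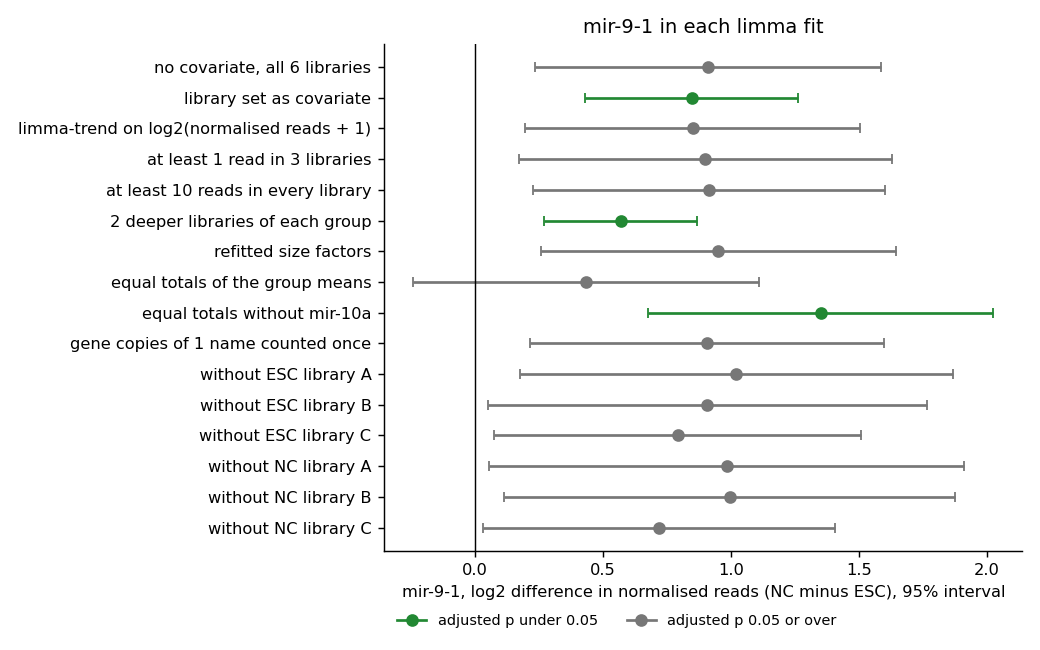
Log2 difference of mir-9-1 (NC minus ESC, horizontal axis) with its 95% interval in each limma fit, green where the adjusted p was under 0.05 and grey otherwise. The points lie between 0.44 and 1.35, the interval crosses 0 at equal totals, and the fits with the library set, with A and B alone and with equal totals without mir-10a are green.

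For miR-124 few reads were present in either group. mir-124-1 had 2, 4 and 1 reads in ESC libraries A, B and C, or 1.23, 4.27 and 1.83 normalised reads, and 19, 4 and 2 reads in the NC libraries, or 8.24, 4.1 and 3.42. mir-124-2 had 2, 3 and 2 reads in ESCs (1.23, 3.2 and 3.65) and 18, 5 and 3 in NCs (7.8, 5.12 and 5.13). mir-124-3 had 2, 3 and 1 reads in ESCs (1.23, 3.2 and 1.83) and 17, 3 and 3 in NCs (7.37, 3.07 and 5.13). NC library A was the highest library of each gene. The groups overlapped for mir-124-1 and mir-124-3 and not for mir-124-2, a separation seen in 4.5% of the 289 resolved miRNAs detected with both means under 10.

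The ESC means, 2.44 ± 1.61, 2.7 ± 1.29 and 2.09 ± 1.01 (SD, n = 3), were all under 3.51, the mean that 3 reads in every ESC library would give. NC means were 5.25 ± 2.61, 6.02 ± 1.55 and 5.19 ± 2.15, above the corresponding 3.17. On the log2(normalised reads + 1) scale NCs were higher by 0.88, 0.97 and 0.99, with exact two-sided permutation p-values of 0.3, 0.1 and 0.2, where 0.1 is the smallest possible. No miR-124 gene passed the limma filter. With the filter lowered to 1 read in 3 libraries their differences were 1.17, 1.25 and 1.23, and the limma-voom adjusted p-values were 0.366, 0.294 and 0.318.

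Reads summed over libraries and divided by the summed size factors gave ratios of NCs to ESCs of 2.87 for mir-124-1 (exact 95% interval 1.21 to 7.85), 2.98 for mir-124-2 (1.26 to 8.14) and 3.08 for mir-124-3 (1.22 to 9.24). These intervals cover counting error only. Most NC reads came from library A, and without it the ratios were 1.71 (0.474 to 5.93), 2.27 (0.721 to 7.37) and 1.99 (0.532 to 7.44). Without ESC library B the ratio of mir-124-1 rose to 4.67, and without ESC library A those of mir-124-1 and mir-124-2 fell to 1.92 and 2.00. With the A and B libraries alone the log2 differences were 1.00, 1.26 and 0.93. For mir-124-2 the gap between the nearest ESC and NC libraries was 1.47 normalised reads, and for mir-124-1 and mir-124-3 the groups overlapped. A permutation test of 3 libraries against 3 for a single gene cannot pass 0.05, so these p-values say nothing on either side. The 3 miR-124 copies stayed within 2 reads of each other in each library, with a chi-square between copies of 1.56 on 12 degrees of freedom. Like those of miR-9, they were treated as 1 measurement and not as 3 results. That mir-124-2 alone separated therefore rests on differences of at most 2 reads between copies.

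**Figure D3:**
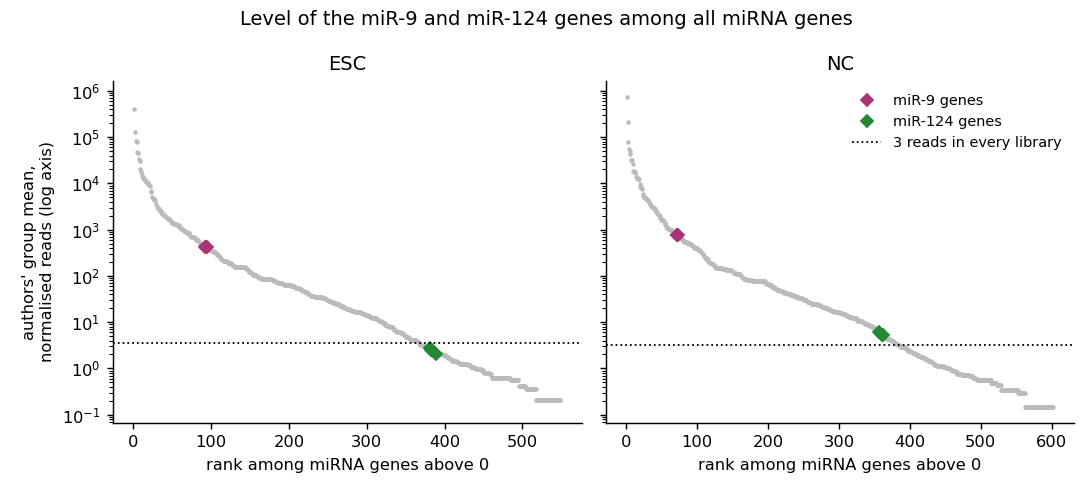
Authors' group mean of each miRNA gene above 0 (vertical log axis, normalised reads) against its rank in ESCs (left) and NCs (right), with miR-9 genes in purple, miR-124 genes in green and the level of 3 reads in every library dotted. The miR-9 genes rank 92 to 94 of 549 in ESCs and 71 to 73 of 602 in NCs, and the miR-124 genes lie under the dotted line in ESCs and just above it in NCs.

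In the order of levels the miR-9 genes stood at ranks 92 to 94 of the 549 miRNA genes above 0 in ESCs and at 71 to 73 of 602 in NCs, by group mean and without regard to length. Each copy held 0.0364% to 0.0367% of the summed signal in ESCs and 0.0478% to 0.0479% in NCs. In ESCs mir-25 (425 normalised reads) came next above and mir-3107 (401) next below, and in NCs mir-296 (773) and mir-467c (745) did. These neighbours and the 3 copies differed by less than the SD of the miR-9 genes between libraries. The miR-124 genes stood at ranks 381 to 389 in ESCs and 356 to 362 in NCs, also closer to each other than their SD.

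Per 100 bases of hairpin, miR-9 genes held 468 to 583 normalised reads in ESCs and miR-124 genes 2.47 to 3.07, the latter from means under the level of 3 reads in every library. In NCs the values were 852 to 1067 and 5.52 to 7.63. The range within miR-9 reflects annotated hairpin lengths of 72 to 90 bases, since its copies had nearly the same reads. The NC libraries, from cells that the study calls neuronal, held few reads of miR-124, the defining miRNA of mature neurons. Other miRNAs known from neural cells ranged from 0 to 408 normalised reads in the NC mean. In such bulk RNA, fewer cells with a miRNA and less of it per cell cannot be told apart.

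Other miRNAs known from neural cells were taken from a list of 21 names, of which 19 matched a name in the table, 16 were detected and 14 tested. The listed names mir-7-1 and mir-7-2 matched none, because the table names these genes mir-7a-1 and mir-7a-2. Those genes are therefore missing from the counts below, and their means were lower in NCs (105 and 67.3 for mir-7a-1, 105 and 68.2 for mir-7a-2, ESC then NC). In limma-voom 7 of the 14 were called higher in NCs and 0 lower, against the 9.48% called higher over all tested miRNAs. The median log2 difference of the 14 was 2.16 against -0.09 over all tested. With the library set as covariate 10 of 14 were higher and 0 lower, beside 22.2% higher over all tested miRNAs. With A and B of each group alone 10 of 15 were higher, beside 27.4%. Without NC library A, B or C the called members of the list were 4 of 11 tested. Over all miRNAs tested in those fits 2.46%, 2.4% and 5.78% were called higher. Those fits kept the filter of 10 reads in 3 libraries. A miRNA with such reads in NCs alone cannot pass it once an NC library is left out. The fall from 14 to 11 tested follows from that filter, so the lower count cannot be read as an effect of the libraries. With copies of 1 name counted once, the count called higher was 3 of 8, beside 8.43%. That fit kept the first entry of each name, which for mir-219a was mir-219a-1 (10.7 and 21.3 normalised reads, ESC then NC). The called mir-219a-2 (0.561 and 214) was thus left out, although its means differ from those of mir-219a-1. The list was chosen with results of these data known, so its direction is no independent evidence.

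mir-138-1, from a brain miRNA that acts at dendritic spines, had 60.4, 66.1 and 87.7 normalised reads in the ESC libraries and 365, 383 and 469 in the NC libraries. It rose by 2.57 on the log2 scale (limma-voom adjusted p 0.000769), and mir-138-2, with 57.9 to 82.2 and 363 to 458, rose by 2.56 (0.000769). For both genes every NC library lay above every ESC library. So it was for both mir-125b genes below, and for 16.1% of the 311 resolved miRNAs reaching a mean of 10 in either group. mir-125b-1, whose miRNA favours neuronal differentiation, had 32.7, 40.5 and 119 in the ESC libraries, then 295, 351 and 566 in the NC libraries, and rose by 3.08 (0.00773). mir-125b-2 had 31.4, 40.5 and 122 in the ESC libraries, then 293, 352 and 580 in the NC libraries, and rose by 3.11 (0.00806). Within each library the copies of mir-138 had close values, as had those of mir-125b. Each pair was therefore read as 1 measurement and not as separate results. For both mir-125b genes library C was the highest of its group in ESCs and in NCs, unlike miR-9, for which it was the lowest ESC library. The other 3 called, named after their values were seen, were mir-135a-1, mir-135a-2 and mir-219a-2, at 3.76, 3.56 and 7.22. Their ESC means were 3.46, 4.02 and 0.561 normalised reads and their NC means 49.9, 50.2 and 214. It thus took the NC libraries for them to pass the read filter. Below the called miRNAs came mir-218-1 and mir-218-2 (1.65 and 1.76, limma-voom adjusted p 0.134 and 0.19). mir-128-1, mir-129-1 and mir-129-2 had values of -0.05, -0.22 and -0.15 without passing the test. The miR-9 genes lay between mir-219a-1 (1.25) and mir-212 (0.48) in size of difference.

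**Figure D4:**
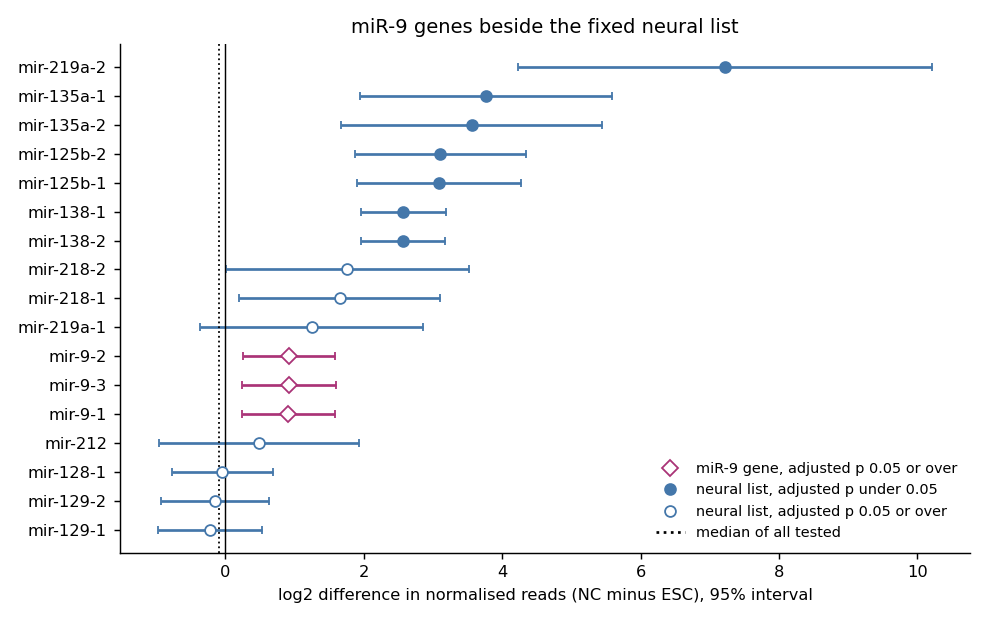
Log2 difference (NC minus ESC, horizontal axis) with its 95% interval in limma-voom for the 14 tested miRNAs of the neural list (circles) and the 3 miR-9 genes (diamonds), filled where the adjusted p was under 0.05. The 7 filled circles lie at 2.56 or more, the miR-9 genes at 0.91 to 0.92 are open, and the dotted line is the median of all tested miRNAs, -0.09.

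The miRNAs whose pattern over the 6 libraries was most like that of mir-9-2, by Pearson's r of log2(normalised reads + 1) among 308 miRNAs outside the members, were let-7c-2 and mir-217 (r = 0.946 and 0.946), let-7c-1 (0.945), mir-362 (0.929) and mir-216a (0.914). The 6 points share libraries and form 2 groups, so these values describe likeness only. let-7c-2, of the let-7 family that accumulates as stem cells differentiate, had 250, 166 and 214 normalised reads in ESC libraries A, B and C and 538, 572 and 701 in the NC libraries. let-7c-1 had 243, 171 and 221 in ESCs and 535, 575 and 725 in NCs. Like miR-9, both had their highest value in NC library C, but their lowest ESC library was B. mir-217 had 1.23, 1.07 and 0 in ESCs and 89.3, 110 and 156 in NCs, mir-216a was at 0 in all 3 ESC libraries and at 21.7, 20.5 and 25.6 in NCs, and mir-362 had 9.13 to 16.0 in ESCs and 29.7 to 37.6 in NCs.

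Annotated miRNA genes within 10 kb of a member were looked up after the values had been seen. mir-3093, 341 bases from Mir9-1 on the same strand, had at most 2 reads in any library, while mir-9-1 had at least 196. mir-3078, 444 bases from Mir124a-1 on the same strand, had 8.63, 6.4 and 58.5 normalised reads in ESCs and 4.34, 3.07 and 15.4 in NCs. In both groups its highest library was C. Its log2 difference was -1.17 (limma-voom adjusted p 0.523), and with the library set as covariate -1.39 (0.0135), opposite in sign to that of mir-124-1.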

How the data were processed

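Small-RNA libraries of 3 ESC and 3 NC samples were summarised by the authors in 1 table of 898 miRNA genes. Its 2 signal columns, as deposited, hold for each group the authors' mean of normalised reads, that is reads over the size factor of their library. The submitters' processing notes name DESeq and build mm10; adapter removal, aligner, miRNA annotation and the treatment of shared reads are not given in the sources used here. The authors' overall mean, fold changes and p-values were not used.

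Reads of single libraries were recovered by enumeration, for means up to 6000, since each of the 3 libraries adds a whole number of its own step to the mean, which carried 10 decimals. In ESCs this resolved 526 of 549 detected miRNAs (95.8%), in NCs 569 of 602 (94.5%), holding 11.1% and 6.21% of the signal. Resolved reads per library ranged from 58406 to 223868, which is not the full depth. In simulated tables every resolved value was right (484 of 484 and 524 of 524).

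limma 3.58.1 (R 4.3.3) with voom weights and the recovered size factors was fitted to miRNAs resolved in both groups with at least 10 reads in 3 libraries. Benjamini-Hochberg adjustment ran over all tested, with a threshold of 0.05. miR-124 was compared by exact two-sided permutation of log2(normalised reads + 1), a scale that understates changes of low values. Alternatives were limma-trend, other filters, library sets, scalings, pseudocounts and left-out libraries. The library set, the neighbouring miRNAs and the summed-read ratios rest on choices made with the data in view. Named miRNAs were the 6 members, the 4 of the neural list with the smallest adjusted p, the 5 most like mir-9-2 and the neighbours in level. Members and lists were chosen with earlier results of these data known. Positions are from GENCODE M21 (GRCm38), and mir-124-1, mir-124-2 and mir-124-3 were matched to Mir124a-1, Mir124a-2 and Mir124a-3. Python 3.11.15, scipy 1.17.1 and biopython 1.88 were used.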

Additional observations from a re-analysis of the deposited data

How the results depend on the processing

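No paired analysis was possible because a library recovered from a group mean cannot be tied to a numbered replicate. Across 15 alternatives, which reuse the same libraries, the miR-9 difference ranged from 0.44 to 1.36 (log2) and stayed positive, and it was not called in 12. It became called with the library set as covariate (0.85 for mir-9-1, 0.86 for mir-9-2, 0.85 for mir-9-3), with the 2 deeper libraries of each group (0.57, 0.59 and 0.57) and at equal totals without mir-10a (1.35, 1.36 and 1.35). The last follows from its shift of 0.44, and for the others the cause was not tested. Leaving out 1 library gave 0.72 to 1.03 and adjusted p-values of 0.126 to 0.262.

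The number of miRNAs called was 47 (29 higher and 18 lower in NCs). It was 134 with the library set as covariate (68 and 66), 155 with the 2 deeper libraries of each group (86 and 69), 23 with at least 10 reads in every library, where 215 were tested, and 13 to 46 when 1 library was left out, with 13 without NC library A and 16 without NC library B (7 higher and 9 lower). Without ESC library A it was 23 and without ESC library B 26. Fits without 1 library kept the filter of 10 reads in 3 libraries, so miRNAs with such reads in the shortened group alone were no longer tested. At equal totals the split was 20 higher and 38 lower, and without mir-10a 44 and 10.

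The 3 miR-124 genes stayed higher in NCs and without a p under 0.05 in the 10 alternatives of each (0.50 to 1.36), but the exact permutation test on 3 against 3 or fewer libraries cannot reach 0.05. limma-voom on the same libraries can, and gave adjusted p-values of 0.294 to 0.366. A pseudocount of 5 in place of 1 lowered the log2 ratios of the miR-124 group means from 0.86, 0.93 and 1.00 to 0.46, 0.52 and 0.52.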
